A study of Mus musculus with 11 samples.

Results

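The 8 genes described here, Npl, Gne, Nans, Cmas, Neu1, Neu3, Renbp and Nagk, make, remove and break down sialic acid, and they were followed through serial passage of mouse intestinal organoids. They are 8 of the 37310 genes in the deposited count tables. Npl was chosen by its own late against early difference in these libraries. The other 7 were chosen by their role in the pathway, with earlier results of these data known. The late against early values of the 8 genes are therefore a description and carry no test. The series held 11 libraries of bulk RNA sequencing, 1 for each animal and passage, from organoids of small-intestinal epithelium. All cultures came from mice with the Lgr5-EGFP-IRES-creERT2 allele, an Lgr5 knock-in that marks intestinal stem cells and carries a tamoxifen-inducible Cre, and no agent or control strain is named in the labels. The organoids grew in a 1:1 mix of Matrigel with a commercial intestinal medium and 1% Primocin. Early libraries were passages 2, 3 and 4 of mouse_283 and passages 2 and 4 of mouse_285 (n = 5), and late libraries were passages 11, 12 and 13 of both animals (n = 6). Ages of 4 and 24 months are named for the donors without a label that ties either age to an animal, so ages were not compared. Libraries of different passages share an animal, so the libraries stand for 2 animals and not for 5 or 6. The p-values and calls below, also those late against early, treat serial passages of the same cultures as replicates.

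Sialic acids are acidic sugars that cap the glycans of mucins, cell-surface proteins and glycolipids, and the intestinal epithelium is rich in them. Gne encodes the enzyme that commits an amino sugar nucleotide to the pathway, Nans joins the resulting sugar phosphate to phosphoenolpyruvate, and Cmas activates free sialic acid in the nucleus as the donor that sialyltransferases use. The sialidases Neu1, of the lysosome, and Neu3, of membranes, take sialic acid off glycans again. Npl encodes the aldolase that cleaves free sialic acid into N-acetylmannosamine and pyruvate. Renbp interconverts N-acetylmannosamine and N-acetylglucosamine, and Nagk phosphorylates N-acetylglucosamine for reuse or for entry into glycolysis.

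Npl and Renbp were the members whose late libraries all lay below all early ones, and their promoters are shown so that the sequence at each start can be compared. Both windows are RefSeq sequence of build GRCm38.p6, 300 bases long, from 250 bases before to 50 bases after the start of the gene, written 5′ to 3′ on the strand of the gene with every CG, the dinucleotide that is methylated in mammals, in capitals. Npl lies on the minus strand at chr1:153549665-153549964 and Renbp on the minus strand at chrX:73930801-73931100.
Npl: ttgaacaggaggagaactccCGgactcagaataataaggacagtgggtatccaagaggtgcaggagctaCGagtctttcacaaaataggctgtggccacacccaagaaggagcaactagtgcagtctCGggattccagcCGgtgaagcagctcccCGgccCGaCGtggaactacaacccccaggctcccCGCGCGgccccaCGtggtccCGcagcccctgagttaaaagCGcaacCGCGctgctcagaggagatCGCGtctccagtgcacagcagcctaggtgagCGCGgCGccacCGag
Renbp: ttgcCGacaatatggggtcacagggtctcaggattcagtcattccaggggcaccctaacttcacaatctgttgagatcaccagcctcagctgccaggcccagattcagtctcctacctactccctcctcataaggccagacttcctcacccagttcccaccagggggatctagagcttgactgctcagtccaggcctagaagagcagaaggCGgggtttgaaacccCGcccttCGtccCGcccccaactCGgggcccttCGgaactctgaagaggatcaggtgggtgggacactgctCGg

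The Npl window held 21 CG and the Renbp window 8. Over 32841 promoter windows of the same length the median was 7 CG, 24.8% of windows held at least as many as Npl and 48.7% at least as many as Renbp. The ratio of observed to expected CG was 0.753 in Npl and 0.318 in Renbp. CCGG, the site at which reduced representation bisulfite libraries are usually made and which contains a CG itself, was present 3 times in the Npl window, was not found in that of Renbp, and was present in 52.8% of all windows. Of the 8 members 7 had a promoter in the table. Windows of the others held 28 and 10 CG at the pair of Gne starts, 17 in Cmas and Nagk, 13 in Neu1 and 12 in Neu3. The genes with late levels below all early ones thus had windows toward the CG-rich and the CG-poor end of the 7 genes. No methylation values were analysed here.

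Reads assigned to genes numbered 15114132 to 28949911 per library, and 3 reads, the limit that a count of 0 allows, corresponded to 0.104 to 0.198 CPM, counts scaled to a standard library size. Levels below are CPM normalised by the trimmed mean method of edgeR. The mouse_283 libraries of passages 3 and 4 differed from the other 9 in base composition: the level of a gene rose with its GC content by 0.97 and 0.78 log2 units per 10 GC points in them, against slopes from -0.41 to 0.20 in the others. The late against early differences of the 8 genes are therefore also given without these 2 libraries, which leaves passage 2 as the early library of mouse_283. Epithelial markers were high in all libraries, with Epcam at 613 to 1230 CPM. The leukocyte gene Ptprc had 1 read in all 11 libraries together and the fibroblast gene Dcn had none. Culture or sequencing batches are not labelled, and a batch that follows the stage cannot be told apart from it.

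Npl (ENSMUSG00000042684.7) was low in all late organoids. In mouse_283 it stood at 67.4, 37.3 and 44.1 CPM at passages 2, 3 and 4 and at 7.07, 3.07 and 7.56 CPM at passages 11, 12 and 13. The levels of mouse_285 were 59.9 and 50.5 CPM at passages 2 and 4 and 11.6, 7.68 and 7.38 CPM at passages 11, 12 and 13. The lowest early library, passage 3 of mouse_283, was above the highest late one, passage 11 of mouse_285, and the groups did not overlap in either animal. Means were 51.9 ± 12.1 CPM in early (SD, n = 5) and 7.39 ± 2.71 CPM in late libraries (SD, n = 6). The fitted difference, late minus early, was -2.88 on the log2 scale (SE 0.27), or a level 7.36-fold lower late. It was -3.08 (SE 0.38) within mouse_283 and -2.63 (SE 0.40) within mouse_285. Without passages 3 and 4 of mouse_283 it was -2.99 (SE 0.26), and over all 17 alternative analyses it ran from -2.996 to -2.695. The value rests on 94 to 277 reads of Npl in each late library and 691 to 1221 in each early one.

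Renbp (ENSMUSG00000031387.7), which acts on the N-acetylmannosamine that Npl releases, was the other member with separate groups. In mouse_283 it stood at 6.34, 20.0 and 15.4 CPM in the early libraries, in order of passage, and at 3.42, 1.5 and 2.07 CPM in the late ones. Libraries of mouse_285 held 11.2 and 13.7 CPM early and 5.62, 5.18 and 3.60 CPM late. The gap between the groups was narrow, since passage 2 of mouse_283 was close to passage 11 of mouse_285. Means were 13.3 ± 5.07 CPM in early (SD, n = 5) and 3.56 ± 1.63 CPM in late libraries (SD, n = 6). The log2 difference was -2.05 (SE 0.36), -2.59 (SE 0.45) within mouse_283 and -1.37 (SE 0.47) within mouse_285. It was smaller without passages 3 and 4 of mouse_283, at -1.39 (SE 0.25), and -1.76 (SE 0.28) after correction for GC content and length. The 2 libraries that stand apart were the highest for Renbp, whose transcript has a GC content of 53.1%. For Npl, whose GC content is 47.8%, they were the 2 lowest of the 5 early ones. After the correction they were still the 2 lowest early ones for Npl, at 39.2 and 49.8 CPM. For Renbp, passage 3 was still the highest at 14.3 CPM. Passage 4 was at 12.9 CPM, below the 13.0 CPM of passage 4 of mouse_285. The part of base composition in these levels was not tested.

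Nagk, the kinase that follows Renbp, showed no such separation. In mouse_283 it stood at 37.3, 101 and 52.7 CPM early and at 36.7, 45.3 and 40.6 CPM late. The other animal, mouse_285, had 47.0 and 53.6 CPM early and 39.7, 42.7 and 46.0 CPM late. Early and late libraries overlapped through passage 2 of mouse_283 at 37.3 CPM. The other early libraries lay above all late ones, passage 2 of mouse_285 only just. The log2 difference of -0.46 (SE 0.23) became -0.09 (SE 0.14) without passages 3 and 4 of mouse_283. After correction for GC content and length it was -0.37 (SE 0.19). The genes for the 3 steps of breakdown thus had unequal late against early differences, and the kinase had the smallest.

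Markers of 2 kinds of epithelial cell moved in the same direction as Npl and Renbp. The 8 enterocyte markers summed to 2810 to 3646 CPM in early and 1315 to 1957 CPM in late libraries, with no overlap, and edgeR called 4 of 8 lower late against early, where 2.34% of all tested genes were called lower. The 7 tuft cell markers summed to 19.6 to 26.5 CPM early and 7.86 to 12.4 CPM late, again with no overlap, and 4 of 7 were called lower in edgeR. The enteroendocrine sum went the other way, from 469 to 550 CPM early to 691 to 964 CPM late, with 2 of 7 called higher in edgeR, where 0.706% of all tested genes were, and 63.5% of the sum from Chgb. Sums of the goblet, Paneth, stem and cycling, epithelial, immune, and fibroblast and endothelial lists overlapped between the groups. Of their 30 tested markers, edgeR called 0. At an unadjusted p under 0.05 in edgeR there were 7 of the 30, against 3346 of all 14172 tested genes. DESeq2 called 1 of the 30 (Vil1) and 8.44% of all genes it tested. The immune sum was 10.2 to 23.0 CPM early and 7.55 to 13.97 CPM late, and 64.1% of it was Itgam. The part of these shifts in the differences of Npl and Renbp was not tested, and in bulk samples fewer cells of a type and less RNA per cell cannot be told apart.

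**Figure D1:**
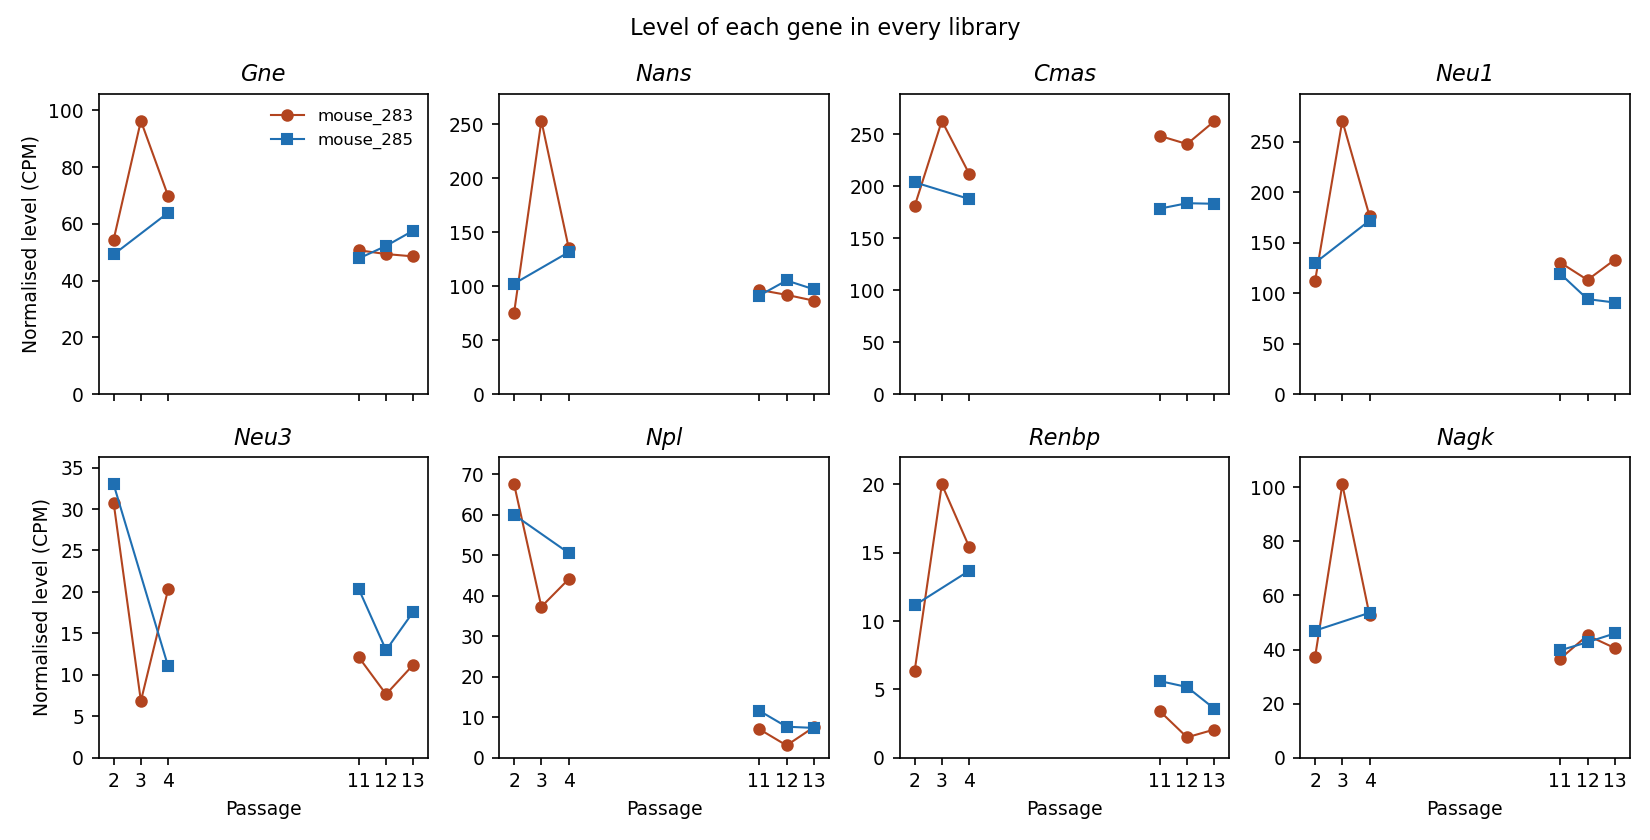
Normalised level (CPM, linear axis from 0) of each of the 8 genes against passage, 1 panel per gene, with circles for mouse_283 and squares for mouse_285 and 1 point per library, where lines join libraries of 1 animal within a stage. Npl lies at 37.3 to 67.4 CPM early and 3.07 to 11.6 CPM late, while Nans, Neu1, Nagk and Gne have their highest point in passage 3 of mouse_283.

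The synthesis genes did not separate the stages. Gne stood at 54.5, 96.3 and 69.8 CPM in the early and at 50.7, 49.4 and 48.5 CPM in the late libraries of mouse_283. For mouse_285 the values were 49.2 and 63.9 CPM early and 47.8, 52.2 and 57.6 CPM late. Late levels of Gne were below all early ones in mouse_283, whereas in mouse_285 they lay on both sides of passage 2. The log2 difference was -0.37 (SE 0.18) over all libraries, -0.11 (SE 0.13) without passages 3 and 4 of mouse_283 and -0.51 (SE 0.23) after the GC correction.

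Nans, the synthase, stood at 75.7, 253 and 136 CPM early and at 96.6, 92.1 and 86.7 CPM late in mouse_283. The levels of mouse_285 were 102 and 132 CPM early and 91.4, 105 and 97.2 CPM late. Passage 2 of mouse_283 was the lowest of all 11 libraries for Nans and passage 3 of the same animal the highest. The log2 difference of -0.54 (SE 0.26) was -0.05 (SE 0.15) without passages 3 and 4 of mouse_283, a value within its error. After the GC correction it was -0.37 (SE 0.22). In the annotation at hand Nans is the one member that shares exon sequence with another gene, 1356 bases with Trim14 on the opposite strand. The counts carry no strand, so reads there cannot be assigned to either gene.

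Cmas, which makes the activated donor, was the member whose mean was not lower late. It stood at 181, 263 and 212 CPM early and at 248, 240 and 262 CPM late in mouse_283. Libraries of mouse_285 held 204 and 188 CPM early and 178, 184 and 183 CPM late. All late libraries of mouse_283 were higher than all late libraries of mouse_285. The log2 difference between stages was 0.06 (SE 0.14), and 0.11 (SE 0.14) without passages 3 and 4 of mouse_283, with means of 209 ± 32.3 CPM in early (SD, n = 5) and 216 ± 38.3 CPM in late libraries (SD, n = 6). Leaving out each library in turn gave -0.02 to 0.13.

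The sialidases overlapped between stages as well. Neu1 stood at 112, 270 and 176 CPM early and at 130, 113 and 133 CPM late in mouse_283. The other animal, mouse_285, had 130 and 172 CPM early and 119, 94.1 and 90.8 CPM late, so that late levels were below early ones in this animal alone. The log2 difference of -0.57 (SE 0.21) was -0.30 (SE 0.17) without passages 3 and 4 of mouse_283 and -0.39 (SE 0.16) after the GC correction.

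Neu3 varied more among early libraries than between the stages. It stood at 30.7, 6.85 and 20.3 CPM early and at 12.1, 7.67 and 11.2 CPM late in mouse_283. For mouse_285 the values were 33.0 and 11.0 CPM early and 20.3, 13.0 and 17.6 CPM late. Passage 2 was the highest library in both animals, and the lowest of all was passage 3 of mouse_283. The log2 difference was -0.67 (SE 0.37), -0.87 (SE 0.31) without passages 3 and 4 of mouse_283 and -0.73 (SE 0.31) after the GC correction.

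**Figure D2:**
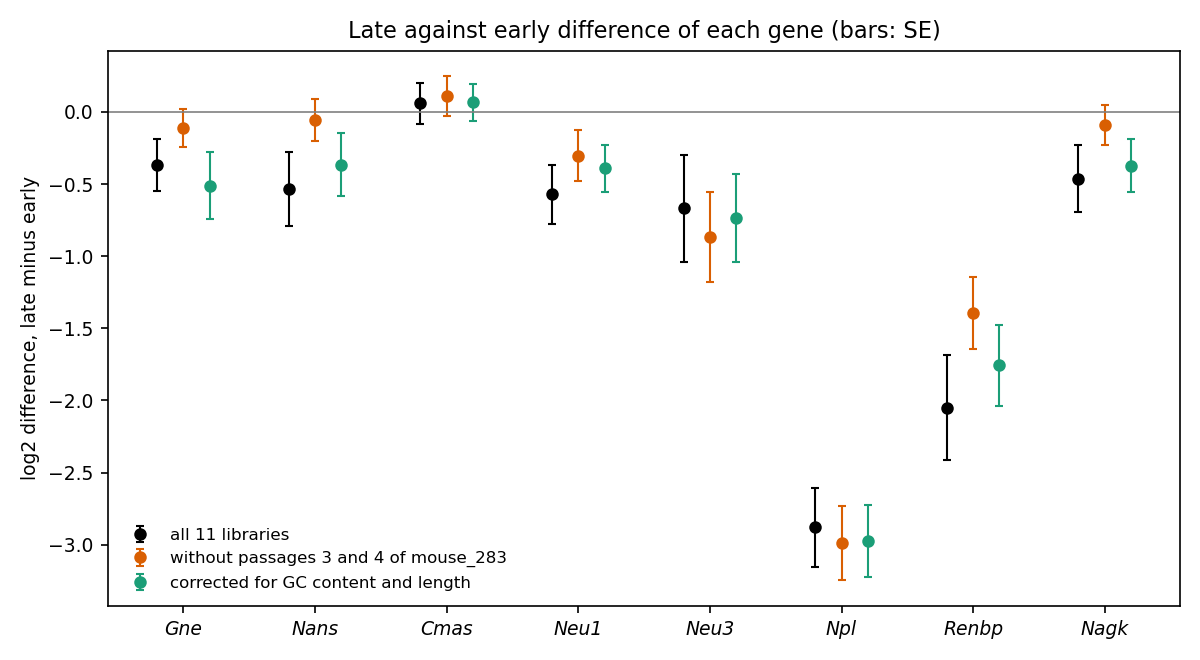
Log2 difference, late minus early, of the 8 genes with bars of 1 SE, from the fit to all 11 libraries, without passages 3 and 4 of mouse_283, and after correction for GC content and length. Npl lies between -2.99 and -2.88 in all 3 fits and Renbp between -2.05 and -1.39, while Nans moves from -0.54 to -0.05 when the 2 libraries are left out. After the correction Nans lies at -0.37.

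Set beside all genes, the late against early calls are a description, since this contrast chose Npl. Of the 8 genes, 2 were called lower late (Npl and Renbp) and 0 higher at an adjusted p under 0.05 in edgeR, with 432 of 14172 tested genes called in either direction (3.05%) and 332 called lower (2.34%). Complete separation with every late library below every early one, the property of Npl and Renbp, was found in 498 genes (3.51%), and separation within each animal in 771 (5.44%). All 8 genes passed the filter on low counts. Their median log2 difference was -0.55, against -0.02 over all tested genes, and 7 of 8 were negative, against 51.4% of all tested genes. Without passages 3 and 4 of mouse_283 the median of the 8 was -0.21, against 0.02 over all genes. After the GC correction it was -0.45, against -0.01 over all genes. Npl was number 58 and Renbp number 138 from the lowest of the 14172 differences, and 150 genes (1.06%) lay below -2.

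Divided by the length of their exons, the levels of the 8 genes changed order between the stages. Per kilobase of exon, Npl stood at 12.6 to 22.8 CPM in early libraries, with a mean of 17.5 ± 4.08 (SD, n = 5), and at 1.04 to 3.92 CPM in late ones, with a mean of 2.50 ± 0.915 (SD, n = 6). Among the 8 genes it ranked between 3 and 6 in early libraries and was number 7 in all 6 late libraries. Cmas and Neu1 held ranks 1 and 2 in all 11 libraries, with 38.3 to 55.7 and 30.1 to 72.4 CPM per kilobase early, ranges that overlap. Nans followed at rank 3 in all late libraries, with 18.9 to 23.0 CPM per kilobase. Nagk, at 7.84 to 9.83, and Gne, at 7.52 to 9.06, exchanged ranks 4 and 5 in late libraries and did not differ beyond their spread. Neu3 was number 6 in all late libraries, at 2.29 to 6.08, a range that overlaps with that of Npl. Renbp was number 8 in all late libraries, at 0.602 to 2.25 CPM per kilobase, and number 7 or 8 in early ones. Exon lengths came from a later build than the counts, so the order of close neighbours is approximate.

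**Figure D3:**
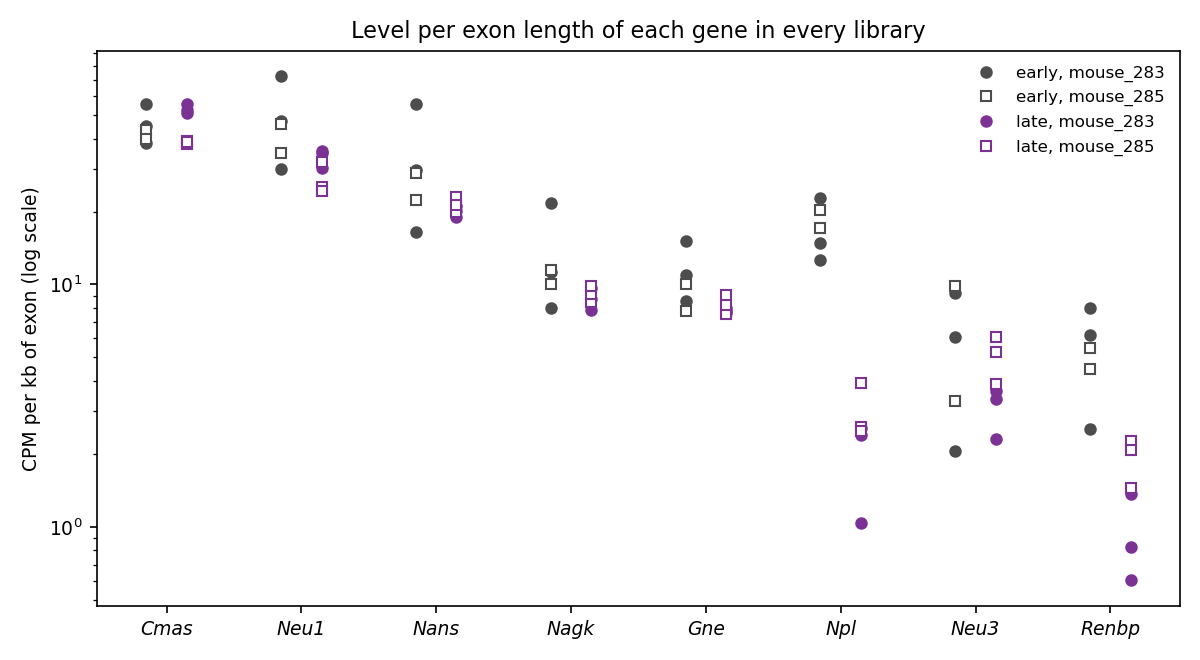
CPM per kilobase of exon (log axis) of the 8 genes in every library, ordered by their median, with early libraries in grey, late libraries in purple, filled circles for mouse_283 and open squares for mouse_285. Npl falls among the middle genes early (12.6 to 22.8) and next to Neu3 and Renbp late (1.04 to 3.92).

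Ratios within a library, which cancel its scaling, set the aldolase against the other steps. The log2 ratio of Npl to Nans, breakdown against synthesis, ran from -2.76 to -0.17 in early and from -4.91 to -2.98 in late libraries. That of Npl to Cmas ran from -2.82 to -1.42 early and from -6.29 to -3.94 late. The ratio of Npl to Neu1, the lysosomal sialidase that releases its substrate, ran from -2.86 to -0.73 early and from -5.20 to -3.36 late. None of these ranges overlapped between the stages. Each ratio holds Npl, which was chosen by its own late against early difference, so their separation follows in part from that choice. The ratio of Npl to Renbp did overlap, at 0.90 to 3.41 early and 0.57 to 1.87 late, and was highest at passage 2 in each animal. That of Renbp to Nagk ran from -2.56 to -1.77 early and from -4.91 to -2.82 late, with no overlap.

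The animals, the difference of the stage effect between them and the trend with passage inside the stages were not used to choose the genes and were tested. The replicates of each animal were serial passages of its own organoids. Tests between the animals and for the interaction thus compare the cultures of mouse_285 and mouse_283 against the spread between their libraries. They cannot show how animals differ in general. Between mouse_285 and mouse_283 none of the 8 genes passed the edgeR test, where 11 of 14172 genes did (0.0776%). At an unadjusted p under 0.05 in edgeR there were 730 of all genes and 1 of the 8, Cmas. DESeq2, which called 0.709% of all genes, also called 0 of the 8. Cmas was lower in mouse_285 by a log2 difference of -0.33 (SE 0.14, adjusted p = 0.891 in edgeR), with all 3 late but not all early libraries of mouse_285 below those of mouse_283. For Npl the difference was 0.40 (SE 0.26) and for Renbp 0.50 (SE 0.36), each with an adjusted p of 0.891 in edgeR. Without passages 3 and 4 of mouse_283 the difference of Renbp was 1.04 (SE 0.25), higher in mouse_285, with an adjusted p of 0.0897 in edgeR. Those of Nans, Nagk and Gne, which were -0.13, -0.11 and -0.12 over all libraries, were positive in that fit.

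For the interaction of stage and animal, 0 of the 8 genes and 0 of 14172 genes (0%) passed in edgeR, with 302 of all genes and 0 of the 8 at an unadjusted p under 0.05. The p-values of the interaction likewise rest on the spread between passages of the same cultures and not between animals. DESeq2 called 15 genes (0.101%) and 0 of the 8. The largest of the 8 estimates belonged to Renbp, whose late against early difference was less negative in mouse_285 by 1.22 (SE 0.65, adjusted p = 0.990 in edgeR). Without passage 2 of mouse_283 it was 1.57 (SE 0.46, adjusted p = 0.0343 in edgeR), in a fit that called 2314 genes (16.5%), and without passages 3 and 4 of that animal it was 0.09 (SE 0.53). For Npl the interaction was 0.45 (SE 0.54, adjusted p = 0.990 in edgeR).

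For the slope with passage number within the stages, 0 of the 8 and 0 of 14172 genes (0%) passed in edgeR, with 911 of all genes and 0 of the 8 at an unadjusted p under 0.05. DESeq2 called 44 genes (0.187%) and 0 of the 8. The slope of Npl was -0.18 log2 units per passage (SE 0.14, adjusted p = 0.617 in edgeR) and that of Neu3 -0.28 (SE 0.19, adjusted p = 0.598 in edgeR). Slopes of the other 6 genes lay between 0.005 for Renbp and 0.12 for Nagk.

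The wider pathway was read from 55 further genes listed by role, of which 40 passed the filter on low counts. The lists were drawn up with earlier results of these data known, which limits what their late against early calls can show. Those calls also take serial passages of the same cultures as replicates. They cannot show how stages differ over animals in general. Late against early, 3 of the 40, among them St3gal3 and Gnpda1, fell and 0 rose in edgeR, where 3.05% of all tested genes were called. Their median log2 difference was -0.32 against -0.02 over all tested genes, with 27 negative and 13 positive. Without passage 2 of mouse_283 the count was 22, in a fit that called 4872 genes in all (34.7%). DESeq2, which called 8.44% of all genes it tested and 5.42% as lower, called 11 of the 40, all lower, namely these 3 with Ctsa, Glb1, St3gal4, Hexa, Fuca1, Ctsb, Gaa and Lamp1. Of these added 8 genes, 7 encode lysosomal proteins and St3gal4 a sialyltransferase. The 40 themselves hold 17 from the list of other lysosomal genes and 6 from that of removal and lysosomal export. Between animals, for the interaction and for the slope, 0 of the 40 passed in edgeR and 0 in DESeq2. At an unadjusted p under 0.05 in edgeR there were 4, 0 and 4 of the 40, against 730, 302 and 911 of all 14172 genes.

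St3gal3 encodes a sialyltransferase that attaches sialic acid to galactose through the third carbon. It stood at 9.76, 19.9 and 19.7 CPM early and at 4.59, 4.27 and 4.71 CPM late in mouse_283. The levels of mouse_285 were 17.0 and 15.9 CPM early and 9.01, 7.11 and 4.65 CPM late. No late library reached an early one, a separation found in 3.51% of all tested genes. It fell by 1.59 on the log2 scale (SE 0.25, adjusted p = 0.00769 in edgeR). It was called in all 17 alternatives, with differences from -1.71 to -1.18. The difference was -1.18 (SE 0.20) without passages 3 and 4 of mouse_283 and -1.20 (SE 0.18) after the GC correction. Those 2 libraries were the highest for St3gal3, whose transcript has a GC content of 58.5%. The part of base composition in its levels was not tested. Among the 20 sialyltransferases 9 passed the filter, with 1 lower and 0 higher and a median of -0.04. Without passages 3 and 4 of mouse_283, 2 of the 9 were lower and 0 higher, with a median of -0.03, in a fit that called 4.76% of all genes. St6gal1 had the most negative difference of them at -2.30 (SE 0.81, adjusted p = 0.134 in edgeR), with levels of 0 to 2.07 CPM, and 5 of the 11 left untested had no read in any library, namely St6galnac1, St6galnac3, St6galnac5, St8sia2 and St8sia6.

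Gnpda1 encodes a deaminase that turns glucosamine phosphate into fructose phosphate, the exit of amino sugars into glycolysis after Nagk and the deacetylase Amdhd2. It stood at 21.6, 32.2 and 30.6 CPM early and at 14.7, 12.0 and 12.8 CPM late in mouse_283. Libraries of mouse_285 held 30.0 and 28.0 CPM early and 15.8, 19.4 and 16.6 CPM late. Again no late library reached an early one. It fell by 0.94 on the log2 scale (SE 0.17, adjusted p = 0.0114 in edgeR) and was called in all 17 alternatives, with differences from -1.01 to -0.73. Gnpda1 was at -0.73 (SE 0.14) without passages 3 and 4 of mouse_283 and at -0.84 (SE 0.13) after the GC correction. It was the 1 gene of the 3 of amino sugar breakdown that passed. Amdhd2 was at -0.59 (SE 0.27, adjusted p = 0.199 in edgeR) and Gnpda2, the paralogue of Gnpda1, at 0.17 (SE 0.45, adjusted p = 0.817 in edgeR).

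Of the 17 other lysosomal genes, all of them tested, 13 had a negative difference and 4 a positive one, with a median of -0.39. The median was -0.29, with 12 negative, without passages 3 and 4 of mouse_283. Hexa, which encodes a subunit of a lysosomal hexosaminidase, was at -0.87 (SE 0.24, adjusted p = 0.0696 in edgeR).

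With all 11 libraries, edgeR called no gene of synthesis and donor supply or of removal and lysosomal export. In the removal list, however, DESeq2 called Glb1 and Ctsa lower (adjusted p = 0.0367 and 0.0499), and edgeR after the GC correction called Siae, the sialic acid esterase gene, at -0.49 (SE 0.14, adjusted p = 0.0495), in a fit that called 7.19% of all genes. All 5 tested genes of synthesis and donor supply had a positive estimate, with a median of 0.35, but the median was 0.08 with 3 positive without passages 3 and 4 of mouse_283, and 0.13 with 3 positive after the GC correction. Uap1, which makes the UDP-activated amino sugar that Gne uses, was at 0.33 (SE 0.18, adjusted p = 0.273 in edgeR). The acetyltransferase gene Gnpnat1 was at 0.40 (SE 0.23, adjusted p = 0.282 in edgeR) and at -0.01 after the GC correction. Without passage 2 of mouse_283 Gnpnat1 was at 0.62 (adjusted p = 0.0322 in edgeR), in a fit that called 34.7% of all genes. Nanp, the phosphatase gene between Nans and Cmas, was at most 0.424 CPM in any library and was not tested. Cmah, whose enzyme hydroxylates the activated sialic acid, had 1 read in all 11 libraries. Of the 6 tested genes of removal and lysosomal export 5 were negative, with a median of -0.42. Glb1 and Ctsa, which encode the galactosidase and the protective protein that form a lysosomal complex with Neu1, were at -0.69 (SE 0.20, adjusted p = 0.0874 in edgeR) and -0.64 (SE 0.20, adjusted p = 0.0990 in edgeR). Without passages 3 and 4 of mouse_283 they were at -0.38 (SE 0.14) and -0.33 (SE 0.15). Both had every late library below every early one, as had 3.51% of all tested genes.

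**Figure D4:**
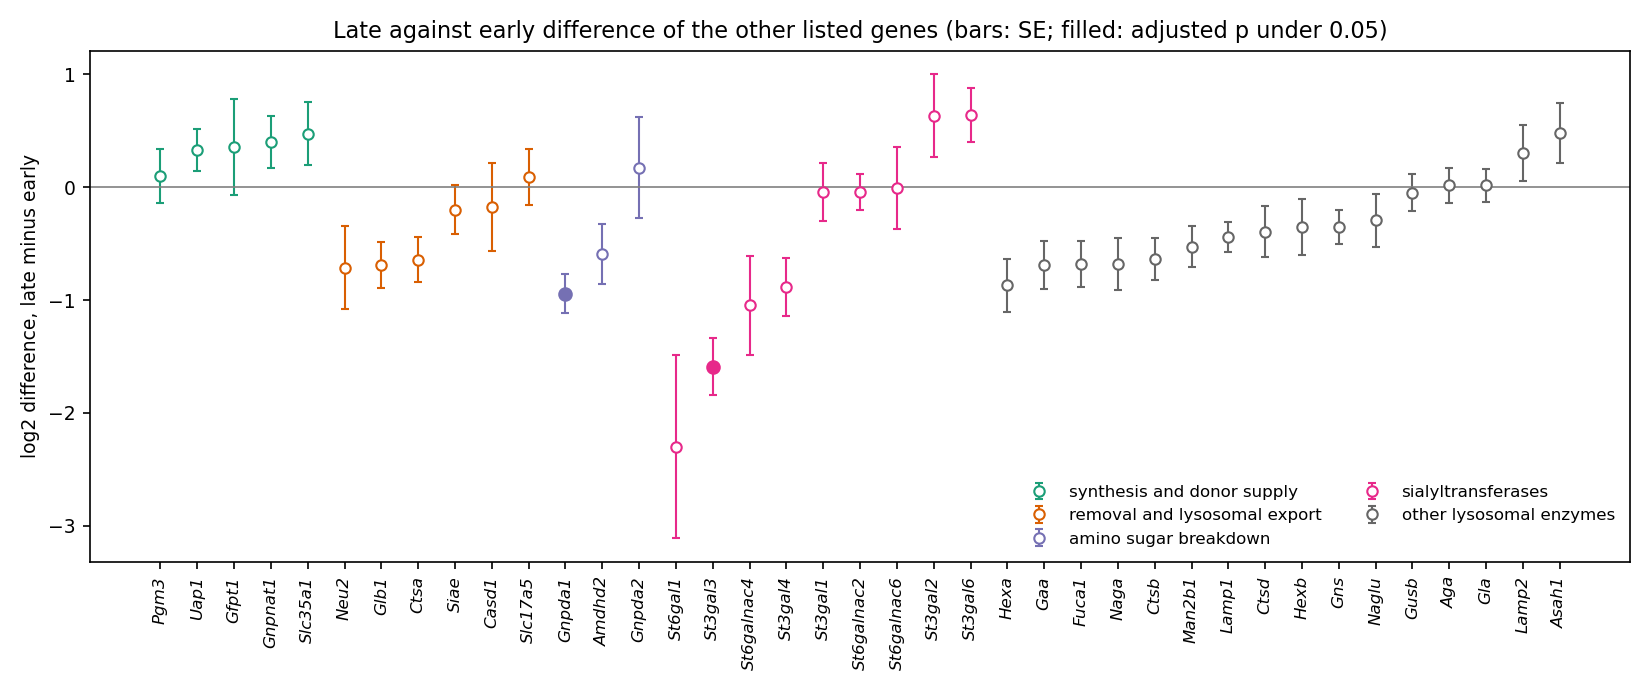
Log2 difference, late minus early, of tested genes of the wider pathway with bars of 1 SE, coloured by list and ordered within it, with filled points for an adjusted p under 0.05. St3gal3 (-1.59) and Gnpda1 (-0.94) are the filled points, and the 5 genes of synthesis and donor supply lie above 0.

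Likeness to Npl was measured as the root mean square difference of log2 CPM, each gene centred over the 11 libraries, among 10051 tested genes with a mean of at least 5 CPM. It is a description over libraries that share the 2 animals and the 2 stages. The 5 genes nearest to Npl were Pm20d1, at 0.43 log2 units, Cyp2d22 (0.48), Pdia2 (0.61), Ifi27 (0.62) and H2-Q6 (0.64). Pm20d1, which encodes a secreted enzyme of N-acyl amino acids, averaged 22.8 ± 7.58 CPM in early (SD, n = 5) and 3.45 ± 1.48 CPM in late libraries (SD, n = 6). Pdia2, of the protein disulfide isomerase family, averaged 34.9 ± 13.1 CPM in early (SD, n = 5) and 7.09 ± 2.40 CPM in late libraries (SD, n = 6). Ifi27, an interferon-induced gene, averaged 41.9 ± 11.6 CPM in early (SD, n = 5) and 7.72 ± 1.14 CPM in late libraries (SD, n = 6). H2-Q6 belongs to a family of near-identical class I genes, so its counts are uncertain. Of the sialic acid genes, Renbp was nearest to Npl, at 0.79 and number 18 of 10051. St3gal3 followed at 0.85 and number 28, and Gnpda1 at 1.08 and number 126.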

How the data were processed

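RNA of 11 organoid cultures was sequenced. The authors deposited raw read counts per gene for each library, with 1 column for unstranded counting and 1 for each strand, as the file layout shows. The submitters' processing notes name Trimmomatic, STAR and build mm9. Versions and annotation were not given in the sources used here. Each strand column held nearly equal reads, so the unstranded column was used. File names give passages higher by 1 than the titles, and titles were used. Symbols, lengths and GC content came from an annotation of a later build (32620 of 37310 identifiers matched), promoters from RefSeq GRCm38.p6.

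Genes were filtered with filterByExpr of edgeR 4.0.16 in R 4.3.3 (14172 kept), normalised by TMM and tested two-sided by the quasi-likelihood F test, with animal and stage in the model, Benjamini-Hochberg adjustment over all tested genes and a threshold of 0.05. The SE is the log2 difference over the root of F, and log2 CPM had a prior count of 2. For the GC correction, a spline with 5 degrees of freedom was fitted in each library to GC content and to transcript length. Alternatives were RLE scaling, no filter, DESeq2 1.42.0, no animal term, each library left out, the 2 libraries that differ in base composition left out together, and the GC correction. The animal was kept as the block because the labels name it: deviations of libraries of the same animal had a median correlation of 0.11 across stages, against -0.14 between animals. No pair of libraries was a duplicate. The scripts were tested on simulated data.

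The members and lists were chosen with earlier results of these data known. Named were all members, pathway genes past the threshold or up to 2 per list with the smallest p, and the 5 genes most like Npl. 1 pathway gene that the rule names is not reported here. St6gal1, Hexa, Siae, Amdhd2, Gnpda2, Nanp, Cmah and the genes that DESeq2 added, outside that rule, were named after their values were seen. The limit of 3 reads covers counting error alone, whereas SDs and SEs also hold the spread between libraries.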

Additional observations from a re-analysis of the deposited data

Results flagged for a closer look

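In the early group, the Nagk level of 101 CPM at passage 3 of mouse_283 was far from the others, which lay between 37.3 and 53.6 CPM. Its gap to the next library made up 0.744 of the whole range of the 5 early libraries. Of 30 groups examined in this way 1 was so marked, and chance marks about 5% of groups. The same library had the steepest rise of expression with GC content, 0.97 log2 units per 10 GC points, and its part in the level of Nagk was not tested.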

How the results depend on the processing

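The late against early differences of Npl kept their sign in all 17 alternatives, as did those of Renbp, Neu1, Neu3, Nans, Nagk and Gne, whereas Cmas lay on both sides of 0. The count of other pathway genes called late against early, 3, was 11 without the low-count filter (7.74% of all genes called), 11 with DESeq2 (8.44%), 5 after the GC correction (7.19%) and 2 with no replicate block (2.82%), that is without the animal in the model. Leaving out each library in turn gave 2 to 22, with 22 without passage 2 of mouse_283 (34.7%). Members called in the interaction numbered 0 to 1 when each library was left out, with 1 (Renbp) again without passage 2 of mouse_283. Gnpnat1 turned from 0.40 to -0.0053 late against early after the GC correction. Between the animals, without passages 3 and 4 of mouse_283, Gne turned to 0.087, Nagk to 0.19 and Nans to 0.26. Over the single libraries left out, this difference ran from -0.20 to 0.11 for Nagk and from -0.24 to 0.12 for Nans, with the positive values without passage 3 of mouse_283. The cause was not tested. The fit with no replicate block changed the call of no gene named here. Depth limits Nanp and other genes below 1 CPM, and 2 animals limit every test.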
